A study of Mus musculus with 28 samples.

Results

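The genes described here encode the proteins of the cytosolic ribosome. They were chosen by symbol: Rps or Rpl followed by a number, or Rpsa, Rplp0, Rplp1, Rplp2 or Fau. Symbols ending in -ps, the Rps6k genes, Rps6kl1, Rps19bp1 and Rpl7l1 were left out. A gene was kept in a table when it reached 10 CPM (reads in a library scaled to 1000000) or more in 3 or more embryos. This gave 87 members among 17995 gene rows, 36 of the small subunit and 51 of the large subunit. All 87 rows named by the rule passed this filter in blastocysts, and 86 of 88 passed in morulae. The rows that failed in morulae were Rpl3l, the heart and skeletal muscle form of Rpl3, and Rps12l1. Of the members, 84 are annotated as protein coding. The other 3, Rps4l, Rpl37rt and Rps12l1, are annotated as pseudogenes whose symbols do not end in -ps, and were kept under the rule. Members lie on 20 chromosomes, with no more than 15 on any chromosome.

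The study sequenced RNA from single whole CD1 mouse embryos, by genotype at the gene for the chromatin protein CTCF. Blastocysts were labelled WT_flfl (3 embryos), het (4), M_KO (4) and MZ_KO (3). Morulae were labelled het (3), del (4) and MZKO (6). Of 28 samples in the labels, 27 have a column, and 1 was not analysed here. Its title is that of the blastocyst het 3 with a further number, and it is labelled as sequencing batch 2, so it may be a repeat library of that embryo. What the genotype names stand for, which Cre line or promoter drove deletion, and which embryos shared a mother or litter are not given in the sources used here. P-values therefore measure the spread between these embryos. All blastocysts analysed belong to sequencing batch 1 and all morulae to batch 2, and the tables were scaled separately, so stage and batch cannot be told apart and levels were compared only within a stage. In the titles, M_KO and MZ_KO carry the prefix C7, and WT_flfl and the blastocyst het carry N89. The morula het and del carry N2, and the MZKO morulae carry C50. The meaning of these prefixes is not given.

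A cytosolic ribosome is built from ribosomal RNA and about equal amounts of each ribosomal protein, so these genes are expressed together and at high level in growing cells. Most of their mRNAs begin with a terminal oligopyrimidine (TOP) tract, a C followed by an unbroken stretch of C and T, through which mTOR signalling and the protein LARP1 control their translation and stability. Mouse embryos inherit ribosomes from the oocyte and transcribe these genes anew during cleavage.

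The start of the mRNA was therefore read for the members in the RefSeq promoter table, build GRCm38.p6. Of 87 members, 65 matched by symbol, and Rps27a, Rpl3 and Rpl7 were among those without an entry. The windows below show 15 bases before the annotated start and 15 from the start on, 5′ to 3′ on the gene's own strand. Capitals mark the run of C and T, of 5 bases or more, that reaches within 5 bases of the start. The first 6 genes are members with a run that were higher in MZ_KO blastocysts than in at least 1 other group, and Rpl41 and Rpl10l were also higher but hold no such run. Rplp0 and Rpl10 did not pass any test between groups. Rpl35a has several annotated starts, and the one with the longest run is shown.
Fau: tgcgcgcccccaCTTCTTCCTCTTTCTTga
Rpl35a: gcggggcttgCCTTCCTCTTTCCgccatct
Rps27: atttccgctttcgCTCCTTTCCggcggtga
Rps26: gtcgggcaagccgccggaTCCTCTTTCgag
Rpl31: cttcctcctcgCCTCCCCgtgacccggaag
Rps7: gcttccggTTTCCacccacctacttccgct
Rpl41: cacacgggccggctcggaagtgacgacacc
Rpl10l: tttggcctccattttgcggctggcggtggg
Rplp0: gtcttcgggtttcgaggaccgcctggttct
Rpl10: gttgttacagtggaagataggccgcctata

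These windows lie at chr19:6057932-6057961 (+) for Fau, chr16:33056467-33056496 (+) for Rpl35a and chr3:90213634-90213663 (-) for Rps27. Rps26 lies at chr10:128626492-128626521 (-), Rpl31 at chr1:39367836-39367865 (+) and Rps7 at chr12:28635939-28635968 (-). Rpl41 lies at chr10:128549154-128549183 (-), Rpl10l at chr12:66284387-66284416 (-), Rplp0 at chr5:115559452-115559481 (+) and Rpl10 at chrX:74270801-74270830 (+). Each window spans the annotated start, so its downstream bases are the beginning of the transcript and its upstream bases are promoter.

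A run of 5 or more was present in 37 of 65 members (56.9%), against 35.1% of the 27025 genes in the table. A run of 9 or more, a length chosen after the windows had been seen, was present in 25 members (38.5%) against 7.82% of all genes. Fau, Rpl35a, Rps27 and Rps26 have such longer runs. A core of the CTCF motif (CCA, any 2 bases, AG, any 2 bases and GGC, in that order, on either strand) was searched in the whole window from 250 bases before to 50 bases after the start. It was present in 3 members, Rpl38, Rplp0 and Rps4x (4.62%), against 2.82% of all genes. Overlap with the runs was not counted, and a match is only a match of letters.

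The genotype labels were checked on Ctcf itself. Its level was 95.1 ± 6.02 CPM (SD, n = 3) in WT_flfl, 67.5 ± 9.73 (n = 4) in het, 69.5 ± 15.6 (n = 4) in M_KO and 3.62 ± 0.660 (n = 3) in MZ_KO blastocysts. In morulae it was 38.6 ± 14.6 (n = 3) in het, 2.30 ± 2.68 (n = 4) in del and 4.33 in MZKO (0 to 8.68, n = 6). Every MZ_KO blastocyst was under all other blastocysts, and every del and MZKO morula was under all het morulae, while del and MZKO overlapped. The limma test passed for MZ_KO against each other blastocyst group and missed the threshold in morulae. Library depth was 7377507 to 27884350 reads in blastocysts and 1635553 to 20414013 in morulae, del 6 being the shallowest. All 8 embryo markers listed (among them Pou5f1, Nanog, Cdx2 and Krt8) reached 10 CPM in every blastocyst, and their sum was 4415 to 5591 CPM in MZ_KO against 5059 to 9826 in the other blastocysts. Of the 13 morulae, all reached 10 CPM for Pou5f1, Nanog, Krt18 and Tfap2c. Krt8 reached it in 12, Cdx2 in 7, Gata3 in 5 and Eomes in 0. Haemoglobin mRNA, made by red blood cells, ranged from 24.5 to 34330 CPM in blastocysts and from 7.41 to 15201 CPM in morulae. The 12 blood markers listed, haemoglobin included, summed to 1112 to 34663 CPM in WT_flfl, 60.2 to 32058 in het, 1285 to 3767 in M_KO and 1686 to 7728 in MZ_KO. Granulosa cell markers summed to at most 98.6 CPM in a blastocyst and 191 CPM in a morula, and oviduct markers to at most 669 and 2176 CPM. The part of these cells' mRNA in the results was not tested.

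Ribosomal protein mRNA took a larger share of the library in MZ_KO blastocysts than in any other blastocyst. Summed over members, the share of the scaled library was 3.20%, 3.22% and 3.42% in the WT_flfl embryos. It was 2.86%, 2.97%, 2.68% and 3.497% in het and 3.21%, 3.58%, 3.32% and 3.22% in M_KO. In MZ_KO it was 4.42%, 3.91% and 3.72%. All 3 MZ_KO embryos were above the highest of the other 11, an M_KO embryo. The group means were 3.28 ± 0.122% (SD, n = 3) for WT_flfl, 3.00 ± 0.350% (n = 4) for het, 3.34 ± 0.170% (n = 4) for M_KO and 4.02 ± 0.361% (n = 3) for MZ_KO. The sum has no test, since the list was chosen with results known, and a share cannot tell more ribosomal protein mRNA from less of other mRNA.

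**Figure D1:**
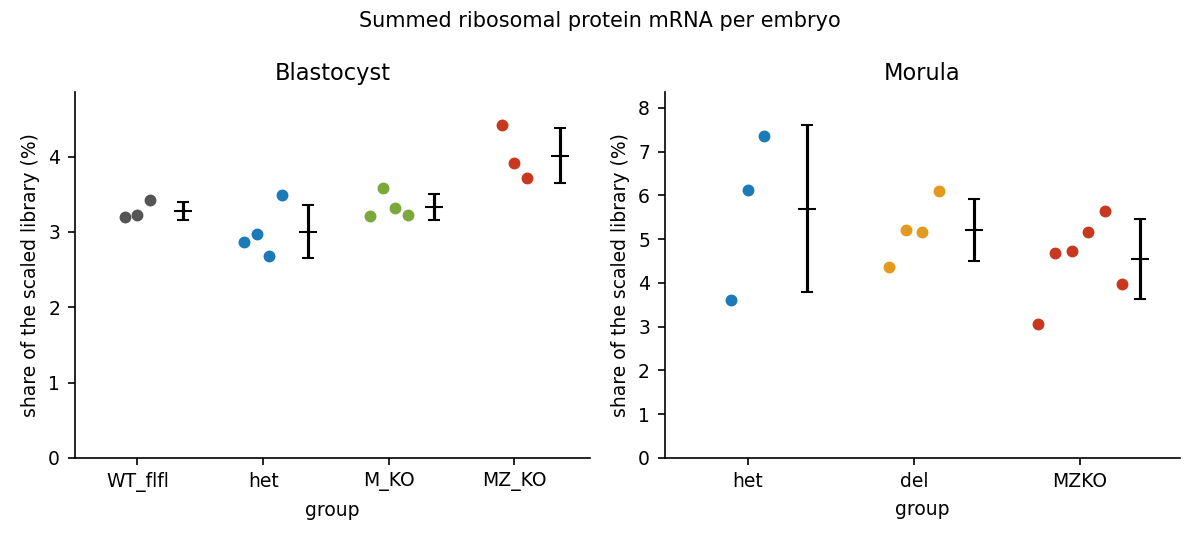
Summed ribosomal protein mRNA as a percentage of the scaled library (vertical axis, from 0) in each embryo, by group, for blastocysts (left) and morulae (right); points are embryos and bars are the mean ± SD. The MZ_KO blastocysts, at 3.72% to 4.42%, lie above every other blastocyst, while the morula groups overlap.

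Both subunits shared the rise. The small subunit summed to 1.46 ± 0.0561% (n = 3) in WT_flfl, 1.34 ± 0.179% (n = 4) in het, 1.47 ± 0.0821% (n = 4) in M_KO and 1.79 ± 0.158% (n = 3) in MZ_KO. The large subunit summed to 1.82 ± 0.0655%, 1.67 ± 0.172%, 1.86 ± 0.0889% and 2.22 ± 0.203% in the same order. The ratio of large to small subunit mRNA was 1.24 in MZ_KO against 1.25, 1.25 and 1.26 in WT_flfl, het and M_KO.

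Gene by gene, members were higher in MZ_KO and none was lower. Each comparison used limma on log2(CPM + 1) with all blastocyst groups in 1 fit and Benjamini-Hochberg adjustment over all 9585 genes tested, and a gene passed at an adjusted p under 0.05. Against het, 53 of 87 members were higher, where 7.02% of all genes were higher and 10.8% were lower. Against WT_flfl, 18 of 87 were higher (4.84% of all genes higher, 8.36% lower). Against M_KO, 19 of 87 were higher (3.74% of all genes higher, 8.09% lower). The median difference of members was 0.49, 0.32 and 0.33 on the log2(CPM + 1) scale against het, WT_flfl and M_KO, and that of all genes was -0.06, -0.05 and -0.03. These comparisons share the 3 MZ_KO embryos, so their counts are not independent of each other.

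The counts depended on single embryos while the medians moved little. Without MZ_KO 2, the embryo with the highest share, 23 members passed against het, 6 against WT_flfl and 6 against M_KO, and the medians were 0.43, 0.26 and 0.26. In each of those last counts of 6, 1 member was lower. The genes higher over all 9585 tested fell with them, from 673 to 354 against het, from 464 to 252 against WT_flfl and from 358 to 172 against M_KO. Against WT_flfl, 7 passed without WT_flfl 1, 7 without WT_flfl 7, 9 without WT_flfl 9 and 11 without MZ_KO 6. Over all genes, 306, 282, 277 and 319 were higher under those settings. Against M_KO, 11 passed without M_KO 1, 11 without M_KO 4, 12 without M_KO 5 and 12 without MZ_KO 6. There, 218, 250, 316 and 218 of all genes were higher. M_KO and MZ_KO embryos carry the same title prefix, so that comparison was made within a prefix, whereas the others cross prefixes. Haemoglobin was highest in WT_flfl 1 and het 6, and without that pair of embryos 6, 30 and 14 members were higher against WT_flfl, het and M_KO, with medians of 0.27, 0.42 and 0.33. Of all genes, 297, 389 and 302 were higher without that pair.

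Because members are abundant, their counts were also set beside those of abundant genes only, those with a mean of at least 100 CPM. Among 2354 such genes, 14.8% were higher against het, 8.96% against WT_flfl and 6.33% against M_KO. Of the 76 members at that level, 67.1%, 23.7% and 23.7% were higher. The median difference of these genes was 0.04, 0.01 and -0.01 against het, WT_flfl and M_KO, and that of these members was 0.49, 0.34 and 0.34.

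**Figure D2:**
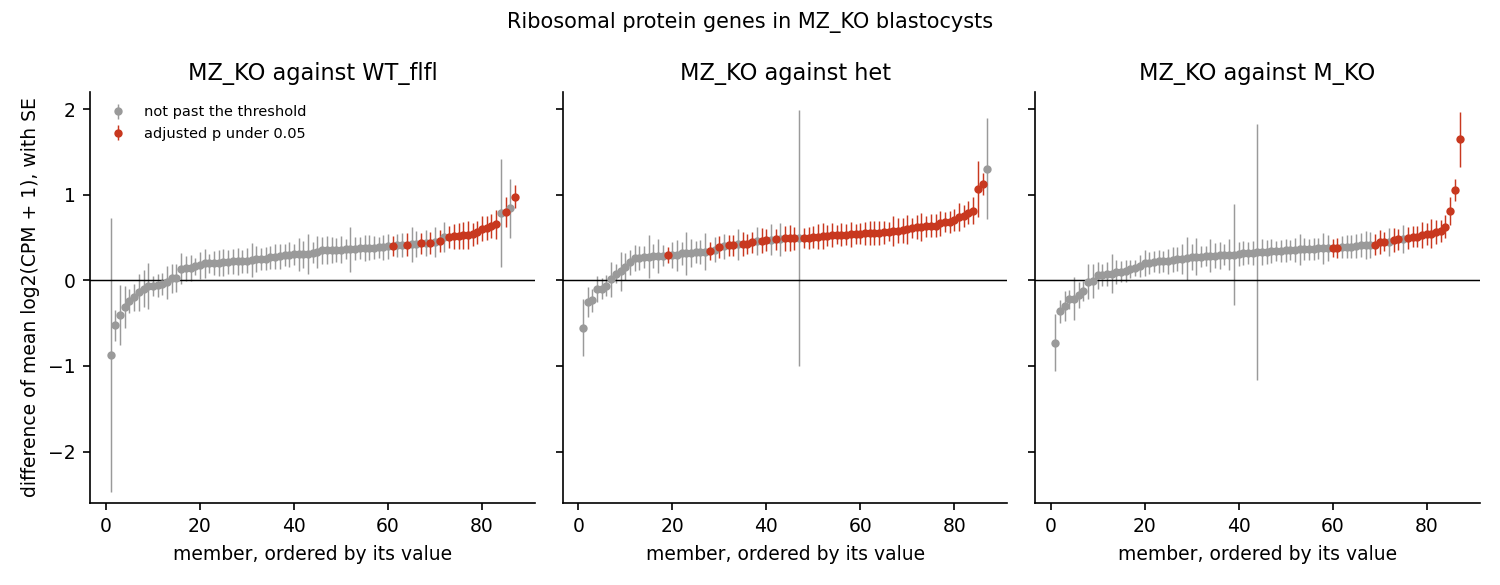
Difference of mean log2(CPM + 1) between MZ_KO and each other blastocyst group (vertical axis) for the 87 members, ordered by value along the horizontal axis; points are genes, bars are standard errors and red marks an adjusted p under 0.05. Most members lie above 0 in each panel, and 53 are red against het, 18 against WT_flfl and 19 against M_KO.

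Rps26, which sits where mRNA leaves the small subunit, was higher in MZ_KO than in each other group. It read 157, 174 and 181 CPM in WT_flfl, 158, 130, 135 and 194 in het, and 128, 173, 154 and 161 in M_KO. It read 298, 248 and 263 CPM in MZ_KO, above all others with no overlap. The differences were 0.65 (adjusted p = 0.0200), 0.82 (adjusted p = 0.00271) and 0.81 (adjusted p = 0.00426) against WT_flfl, het and M_KO by limma.

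Rps7, a small subunit protein that also binds MDM2, read 231, 252 and 265 CPM in WT_flfl and 220, 271, 222 and 345 in het. In M_KO it read 322, 351, 351 and 258 CPM, and in MZ_KO 448, 448 and 412. MZ_KO embryos were above all others, and 3 of the 4 M_KO embryos lay between the WT_flfl and MZ_KO values. The difference was 0.80 (SE 0.17, adjusted p = 0.00623) against WT_flfl and 0.74 (SE 0.16, adjusted p = 0.00515) against het by limma, and it was 0.45 (SE 0.16, adjusted p = 0.0820) against M_KO.

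Rps27a and Fau are translated as fusions to ubiquitin and to a ubiquitin-like protein. Rps27a read 323, 351 and 385 CPM in WT_flfl, 346, 344, 296 and 378 in het, and 372, 383, 369 and 379 in M_KO. In MZ_KO it read 645, 518 and 493 CPM, above all other embryos. Its differences were 0.64 (adjusted p = 0.00616), 0.69 (adjusted p = 0.00186) and 0.54 (adjusted p = 0.0120) against WT_flfl, het and M_KO by limma. Fau was higher against WT_flfl by 0.53 (adjusted p = 0.0375) and against het by 0.67 (adjusted p = 0.00647), and its difference from M_KO was 0.38 (adjusted p = 0.117).

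Rpl3, which lies next to the peptidyl transferase centre, stood apart from these. It read 950, 1028 and 1164 CPM in WT_flfl, 935, 968, 895 and 997 in het, 1204, 1278, 1122 and 1067 in M_KO, and 1080, 995 and 930 in MZ_KO. The groups overlapped, and MZ_KO lay within the range of the others. The differences were -0.06 (SE 0.12, adjusted p = 0.777), 0.08 (SE 0.11, adjusted p = 0.672) and -0.22 (SE 0.11, adjusted p = 0.215) against WT_flfl, het and M_KO by limma.

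Other members also had values near or under 0. Rps20 read 129.8 ± 29.1 CPM (n = 3) in MZ_KO against 186.1 ± 31.0 (n = 3) in WT_flfl, a difference of -0.53 (adjusted p = 0.0725). Rpl22l1 differed by -0.55 (adjusted p = 0.265) against het and Rpl36 by -0.10. Rpsa, the laminin receptor and small subunit protein, differed by -0.06 against het. None of these passed.

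**Figure D3:**
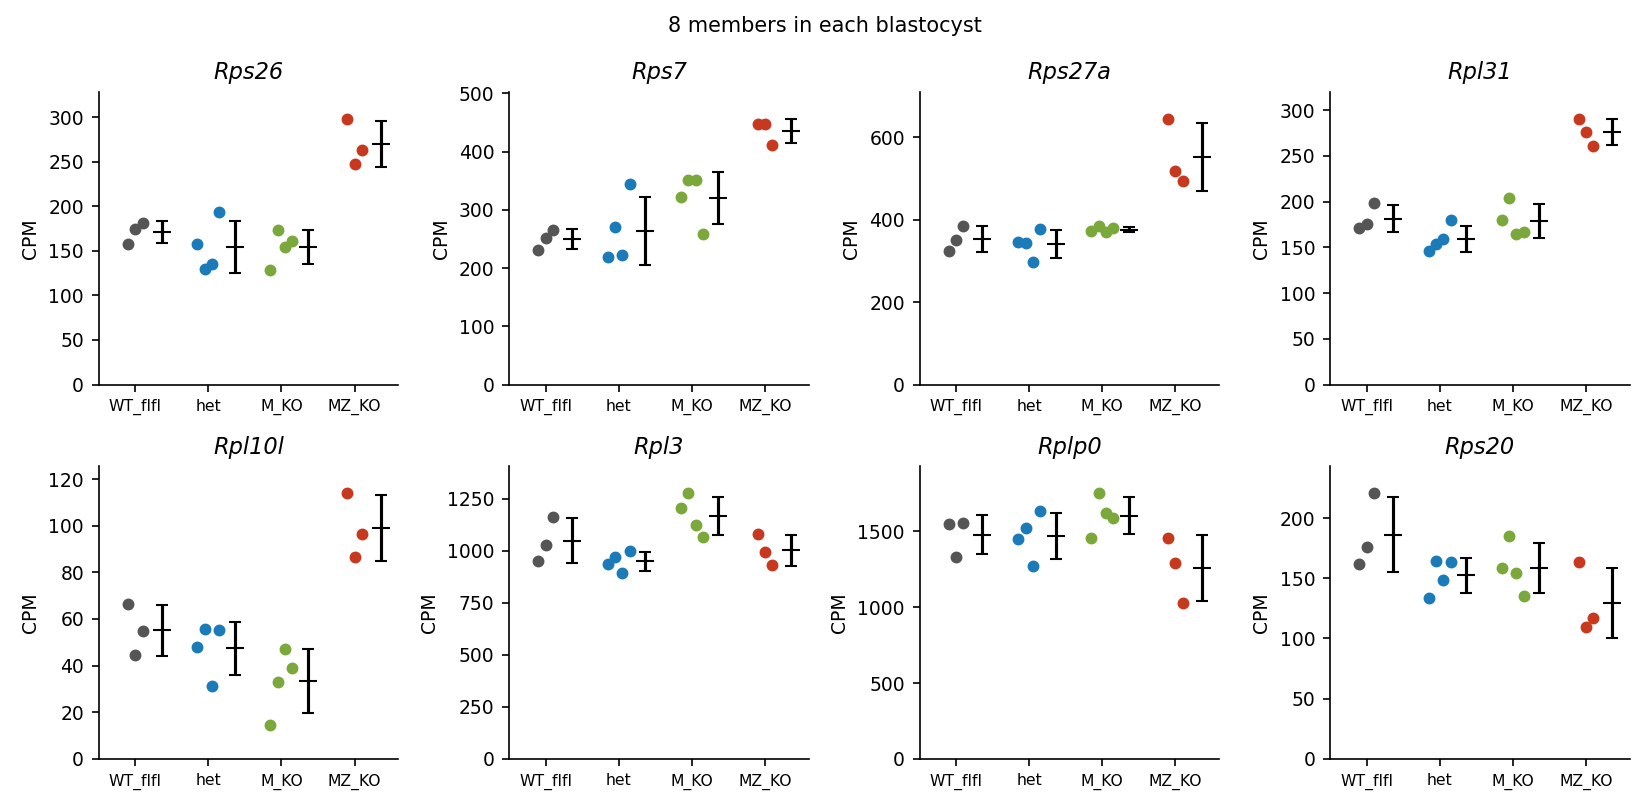
CPM (vertical axes, from 0) of 8 members in each of the 14 blastocysts, by group; points are embryos and bars are the mean ± SD. Rps26, Rps7, Rps27a, Rpl31 and Rpl10l are higher in all 3 MZ_KO embryos than in every other embryo, and Rpl3, Rplp0 and Rps20 overlap between groups.

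In all, 46 of 87 members were higher in every MZ_KO embryo than in each of the other 11 blastocysts, where 6.13% of all genes were. No member was lower in every MZ_KO embryo, where 6.85% of all genes were. Within MZ_KO, 70 members had their highest value in MZ_KO 2 and 56 their lowest in MZ_KO 7. In het, 80 had their highest value in het 8 and 50 their lowest in het 6. In M_KO, 60 had their highest value in M_KO 3, and the lowest were divided as 41 in M_KO 5, 30 in M_KO 1, 14 in M_KO 4 and 2 in M_KO 3. In WT_flfl, 53 had their highest value in WT_flfl 9 and 51 their lowest in WT_flfl 1. The same counts over all genes were not made. Of the blastocysts, het 8 had the least haemoglobin (24.5 CPM) and het 6 had 31010 CPM. The part of haemoglobin in these differences was not tested.

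Within the subunits, the largest differences were spread over proteins of different places in the ribosome. Besides those above, Rps19, a small subunit head protein mutated in Diamond-Blackfan anaemia, was higher by 0.61 (adjusted p = 0.00826), 0.71 (adjusted p = 0.00176) and 0.50 (adjusted p = 0.0206) against WT_flfl, het and M_KO. Rpl31, at the exit of the peptide tunnel, was higher by 0.60 (adjusted p = 0.0109), 0.79 (adjusted p = 0.000986) and 0.63 (adjusted p = 0.00646) against WT_flfl, het and M_KO by limma. Rpl35a, Rpl41, Rpl24 and Rps15a also passed in all 3 comparisons. Rpl35a was higher by 0.56, 0.75 and 0.51 against WT_flfl, het and M_KO, with its highest adjusted p at 0.0148. Rpl41, the smallest ribosomal protein, was higher by 0.54, 0.63 and 0.58, with its highest adjusted p at 0.0149. Rpl24, at the joint between the subunits, was higher by 0.51, 0.68 and 0.51, and Rps15a by 0.52, 0.64 and 0.56. Rpl35, a tunnel exit protein, was higher against het by 0.60 (adjusted p = 0.0208) and M_KO by 0.55 (adjusted p = 0.0418), with 0.45 (adjusted p = 0.106) against WT_flfl.

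The stalk recruits translation factors, and its members differed. Rplp0, the base of the stalk, read 1258 ± 216 CPM (n = 3) in MZ_KO against 1479 ± 126 (n = 3) in WT_flfl, 1471 ± 152 (n = 4) in het and 1605 ± 123 (n = 4) in M_KO, and its largest difference was -0.36 (adjusted p = 0.0825) against M_KO. Rplp1, its acidic partner, was higher by 0.52 (adjusted p = 0.0285), 0.53 (adjusted p = 0.0142) and 0.44 (adjusted p = 0.0464) against WT_flfl, het and M_KO. Rplp2, the other acidic partner, was higher against het by 0.48 (adjusted p = 0.0133), with 0.38 (adjusted p = 0.0686) against WT_flfl. Rpl12, beside the stalk, differed from het by 0.28 (adjusted p = 0.479). Rpl5 and Rpl11, which carry the 5S ribosomal RNA, differed from het by 0.48 (adjusted p = 0.0953) and 0.21 (adjusted p = 0.334). A difference between Rplp0 and its partners was not itself tested.

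Several members have a paralog, and how alike the proteins of a pair are was not measured here. Rpl10l, an intronless copy of the X-linked Rpl10 on chromosome 12 (ENSMUSG00000060499, chr12:66283379-66284401, minus strand of GRCm38), is best known for its role in male meiosis. It read 66.4, 44.5 and 54.7 CPM in WT_flfl, 48.1, 55.5, 31.2 and 55.1 in het, and 14.5, 33.0, 47.1 and 38.9 in M_KO. In MZ_KO it read 114, 86.4 and 96.6 CPM. All 3 MZ_KO embryos were above the others, and M_KO 1 was the lowest. Rpl10l was higher by 1.07 (SE 0.33, adjusted p = 0.0321) against het and 1.65 (SE 0.33, adjusted p = 0.00382) against M_KO by limma, with 0.84 (SE 0.35, adjusted p = 0.120) against WT_flfl. Rpl10 differed by -0.31, 0.11 and 0.08 against WT_flfl, het and M_KO, and none passed.

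In the other pairs measured, only the copy, both genes or neither passed against het, and differences within a pair were not tested. Rpl36al, the autosomal copy of the X-linked Rpl36a, was higher against het by 0.54 (adjusted p = 0.0110), where Rpl36a differed by 0.01. Rps27 was higher by 0.53 (adjusted p = 0.0411), 0.51 (adjusted p = 0.0275) and 0.54 (adjusted p = 0.0300) against WT_flfl, het and M_KO, and Rps27l, a p53 target, by 0.58 (adjusted p = 0.0356) against het. Rpl22 differed from het by 0.29 (adjusted p = 0.198) and its paralog Rpl22l1 by -0.55. Rpl39 and Rpl39l differed from het by 0.32 (adjusted p = 0.202) and 0.32 (adjusted p = 0.405). Rps4x and Rps4l differed from het by 0.29 (adjusted p = 0.349) and -0.10 (adjusted p = 0.616). Rpl26 was higher by 0.44, 0.61 and 0.48 against WT_flfl, het and M_KO. Ribosomal protein genes have many processed pseudogenes, and reads of near-identical copies such as Rps4l, Rpl37rt, Rps27rt and Rps12l1 may have been split between rows by the counting, so these values are uncertain.

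The 4 members on the X chromosome, Rpl10, Rpl36a, Rpl39 and Rps4x, gave 0 of 4 past the threshold in every MZ_KO comparison, a split chosen after the values had been seen. Of the 83 autosomal members, 53, 18 and 19 passed against het, WT_flfl and M_KO. Over all genes, 7.02%, 4.84% and 3.74% were higher, and for 4 genes a count of 0 is near those shares. The median difference was 0.49, 0.35 and 0.33 for the autosomal members. For the X-linked members it was 0.20 against het, -0.12 against WT_flfl and 0.04 against M_KO. The lowest adjusted p among them by limma was 0.125, for Rpl39 against M_KO. The number of embryos with both Y-linked mRNAs examined at 10 CPM or more was 2 of 3 in MZ_KO, 1 of 3 in WT_flfl, 3 of 4 in het and 2 of 4 in M_KO.

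Transcript length and the pyrimidine run were set beside the differences as descriptions across genes, which are not independent replicates. Members are short, and over all genes shorter transcripts tended to higher differences in MZ_KO: Spearman's rho of length and difference was -0.15, -0.22 and -0.13 over 9583 genes against WT_flfl, het and M_KO, and -0.26, -0.24 and -0.26 over the 87 members. Such trends were not particular to MZ_KO. Over all genes, rho was -0.18 for M_KO against het, 0.14 for het against WT_flfl and -0.06 for M_KO against WT_flfl. In morulae it was 0.18 for MZKO against het, 0.15 for MZKO against del and 0.05 for del against het. Among transcripts up to 1000 nt, a length chosen after the values had been seen, the 69 members had medians of 0.35, 0.50 and 0.33, and the 993 other genes had 0.17, 0.26 and 0.16. The part of length in the members' differences was not tested. Members with a run of 9 or more and those with a shorter run had similar medians, 0.51 and 0.47 against het (25 and 40 members), 0.33 and 0.33 against WT_flfl, and 0.34 and 0.31 against M_KO. Past the threshold were 18 of 25 and 19 of 40 against het, 5 and 8 against WT_flfl, and 6 and 8 against M_KO, and these differences were not tested.

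The other blastocyst comparisons gave no call. M_KO against WT_flfl, M_KO against het and het against WT_flfl had 0 of 87 members past the threshold by limma, where 0.0% of all genes were higher and 0.0% were lower in each of the 3. Without adjustment, 2, 6 and 2 members had p under 0.05, and limma with voom weights on whole reads also called 0 in each. The medians of members were 0.0053, 0.15 and -0.14. Against het, 82 of 87 members were above 0 in M_KO, with Rpl3 at 0.30 (adjusted p = 0.722), and against WT_flfl only 6 of 87 were above 0 in het. These comparisons share embryos with one another and with the MZ_KO comparisons.

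In morulae, ribosomal protein mRNA varied more between embryos of a genotype than between genotypes. The share was 3.62%, 6.12% and 7.36% in het, and 4.37%, 5.20%, 5.17% and 6.10% in del. In MZKO it ranged from 3.06% to 5.64%. The groups overlapped, with means of 5.70 ± 1.91% (n = 3), 5.21 ± 0.70998% (n = 4) and 4.54 ± 0.911% (n = 6). The lowest shares were those of het 1 and MZKO 1, which also had the most genes with a read (16329 and 16343, against 12158 to 15387 in the other morulae) and the most haemoglobin (15201 and 4015 CPM, against 7.41 to 1299). Their oviduct markers summed to 1403 and 2176 CPM, against 5.01 to 350 in the other morulae. The part of these properties in the share was not tested.

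No member passed in a morula comparison by limma, out of 86 tested among 9953 genes. For MZKO against het, 0.412% of all genes were higher and 0.0703% lower, and 3 members had an unadjusted p under 0.05. For MZKO against del, 0.141% of all genes were higher and 0.0402% lower, and 3 members had an unadjusted p under 0.05. For del against het, 0.0% of all genes were higher and 0.01% lower, and 0 members did. Limma with voom weights also called 0 members in each. The medians of members were -0.30, -0.24 and -0.04, against -0.02, 0.02 and -0.04 for all genes. For MZKO against het, 6 of 86 members were above 0. That median was -0.61 without het 1 and -0.06 without het 7, and for del against het it was -0.35 without het 1 and 0.18 without het 7.

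In MZKO morulae, Rpl3 and Rpl10l had lower means than in het, though neither difference passed with all embryos. Rpl3 read 1309, 2198 and 2315 CPM in het, 1358, 1418, 1595 and 1615 in del, and 726 to 1429 with a median of 1130 in MZKO. Its difference from het was -0.83 (SE 0.27, adjusted p = 0.250 by limma). Without het 1 and MZKO 1, a setting added after seeing the data, it was -1.05 (SE 0.23, adjusted p = 0.0466 by limma). Rpl3 was the only member to pass there, and the number over all genes in that setting is not given here. Of 86 members, 83 had the lowest het value in het 1, and 73 had the lowest MZKO value in MZKO 1. Rpl10l read 17.7, 67.5 and 79.8 CPM in het, 70.2, 53.7, 79.5 and 52.3 in del, and 7.17 to 33.1 with a median of 18.6 in MZKO. All 6 MZKO embryos were under all 4 del embryos and overlapped het 1, with a difference of -1.78 (SE 0.46, adjusted p = 0.198) from del and -1.34 (SE 0.50, adjusted p = 0.392) from het. The lowest Rpl10l value rests on 103 reads, in MZKO 4. Rpl21 differed from het by -0.77 (adjusted p = 0.449).

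The difference of the differences was tested across stages, each taken within its own table so that the offset of stage and batch cancels. All groups of both stages were in 1 limma fit with 1 variance per gene, although embryos varied more in morulae. The effect of that unequal spread on these p-values was not tested. The knockout difference from het, in blastocysts minus in morulae, passed for 2 of 86 members, both higher, where 0.63% of 8572 genes were higher and 0.98% lower. Rpl10l had 2.41 (SE 0.63, adjusted p = 0.0443 by limma), from 1.07 in blastocysts and -1.34 in morulae. Rpl7, a large subunit protein (chr1:16101295-16104662), had 1.05 (SE 0.26, adjusted p = 0.0346), from 0.54 (adjusted p = 0.00342) and -0.52 (adjusted p = 0.592). Over members the median was 0.76, against 0.01 for all genes, and 85 of 86 were above 0, Rpl22l1 being the exception.

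Rpl7 read 662, 705 and 751 CPM in WT_flfl, 632, 616, 583 and 675 in het, 687, 706, 649 and 750 in M_KO and 1001, 900 and 828 in MZ_KO blastocysts. In morulae Rpl7 read 1084, 1886 and 1775 CPM in het, 1246, 1257, 1230 and 1561 in del, and 832 to 1284 with a median of 1146 in MZKO. All 3 MZ_KO blastocysts were above all others, and the morula groups overlapped.

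The count across stages depended on single embryos. Without the morula het 1 it was 54 members, without het 1 and MZKO 1 it was 58, and without the morula MZKO 6 it was 5. Over all 8572 genes the number higher rose with it, from 54 to 430, 453 and 68 under the same settings. It was 0 without any one of the blastocyst het 3, het 5, het 6, MZ_KO 2 and MZ_KO 6 or the morula het 5 and het 7. It was 1 without any one of the blastocyst WT_flfl 1, WT_flfl 7, WT_flfl 9, het 8, M_KO 3, M_KO 5 and MZ_KO 7 or the morula del 3 and MZKO 8. For these settings with 0 or 1 member, the numbers over all genes are not given here. A loss of calls particular to the members therefore cannot be read from them. The median kept its sign throughout, from 0.51 without the morula het 7 to 1.08 without the morula het 1.

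**Figure D4:**
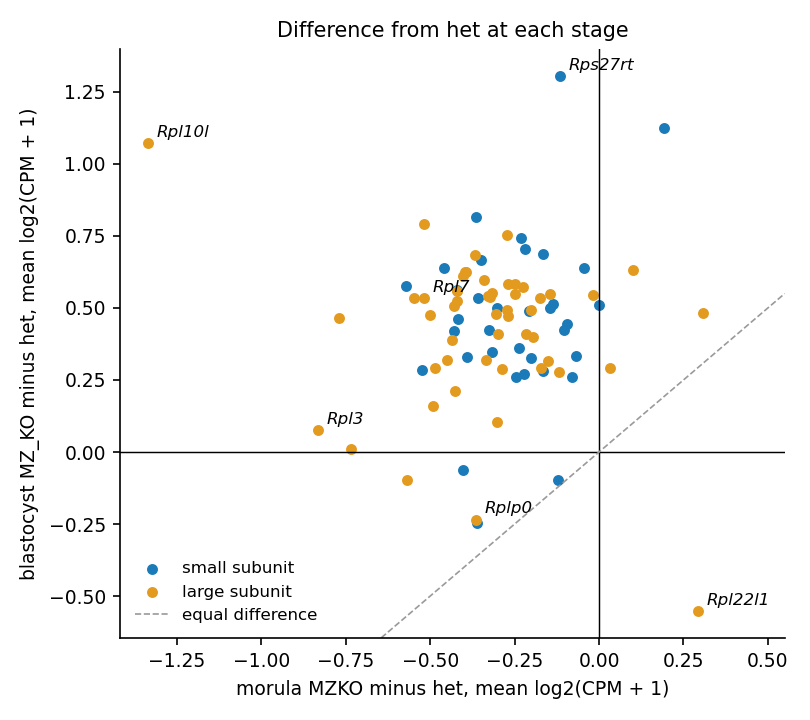
Difference of mean log2(CPM + 1) between knockout and het in blastocysts (vertical axis) and morulae (horizontal axis) for 86 members; points are genes coloured by subunit, and the dashed line marks equal differences. All but Rpl22l1 lie above the dashed line, most of them above 0 in blastocysts and under 0 in morulae.

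Within members, levels per kilobase of transcript differed widely. In WT_flfl blastocysts the lowest were Rps12l1 at 21.2 ± 25.4, Rpl12 at 29.6 ± 10.5 and Rps15a at 30.045 ± 0.427 CPM per kb (n = 3), which did not differ beyond the spread of Rps12l1 and Rpl12, and Rps18, among the highest, was at 1238 ± 140. In het morulae the lowest were Rpl5, Rpl12 and Rpl10l at 32.5 ± 8.30, 45.4 ± 22.4 and 53.8 ± 32.1 CPM per kb (n = 3), also within their spread, and Rpl41, among the highest, was at 2764 ± 1007. The length is the median over annotated transcripts, and for Rps15a it is 5130 nt, so its value depends on which transcript is taken.

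Among the members with the widest range of group means in blastocysts, Rpl13 ran from 756 CPM in het to 1124 in MZ_KO and Rpl19 from 752 to 1119. In morulae Rpl3, Rplp0, Rpl7 and Rps4x were among them. Rplp0 ran from 2073 CPM in MZKO to 2765 in het, and Rps4x from 754 to 1113, in each case with groups that overlapped. Rps4x is X-linked. Both Y-linked mRNAs reached 10 CPM in 0 of 3 het, 1 of 4 del and 3 of 6 MZKO morulae. The part of embryo sex in the range of Rps4x was not tested. Rps12l1, kept only by the blastocyst table, had no read in many embryos and reached 148 CPM in the morula del 6, on 255 reads.

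Of 24 other genes listed whose mRNAs begin with a TOP tract, 22 were tested in blastocysts. In MZ_KO, 5 were higher against het, 2 against WT_flfl and 3 against M_KO, and none was lower, where 7.02%, 4.84% and 3.74% of all genes were higher. The count against WT_flfl is close to that share. Rack1, a protein of the small subunit's head, was higher by 0.88 (adjusted p = 0.000531), 0.76 (adjusted p = 0.00318) and 0.67 (adjusted p = 0.00501) against het, WT_flfl and M_KO by limma. Snhg5, a noncoding host gene of small nucleolar RNAs, rose from 29.7 ± 9.25 CPM (n = 4) in het to 85.6 ± 12.9 (n = 3) in MZ_KO, a difference of 1.53 (adjusted p = 0.0008). Naca, of the nascent polypeptide complex, was higher against het by 0.43 (adjusted p = 0.0301) and Eif3h against M_KO by 0.49 (adjusted p = 0.0194). The medians of this list, 0.20, 0.14 and 0.15 against het, WT_flfl and M_KO, were under those of the ribosomal protein genes.

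Among 15 regulators of these genes, Myc and Mycn, transcription factors that raise ribosome production, were lower in MZ_KO. Myc fell from 50.6 ± 36.5 CPM (n = 4) in het to 9.16 ± 5.52 (n = 3), a difference of -2.21 (adjusted p = 0.0131 by limma), with -2.16 (adjusted p = 0.0264) against WT_flfl and -2.51 (adjusted p = 0.00892) against M_KO. Mycn fell from 50.1 ± 21.9 to 6.06 ± 5.27 CPM, a difference of -3.34 (adjusted p = 0.00168), with -3.20 (adjusted p = 0.00436) against WT_flfl and -2.63 (adjusted p = 0.0111) against M_KO. Eif4ebp1, the translation repressor that mTOR inactivates, was higher by 1.05 (adjusted p = 0.000609), 0.87 (adjusted p = 0.00468) and 0.68 (adjusted p = 0.0151) against het, WT_flfl and M_KO. Mlst8, a subunit of mTOR complexes, was higher by 1.12 (adjusted p = 0.0134) against M_KO. These lists are small, and 1 or 2 of the 15 regulators were higher and 2 were lower in each comparison, where 8.36%, 10.8% and 8.09% of all genes were lower against WT_flfl, het and M_KO. Of 11 chaperones and importers of ribosomal proteins, none was higher and 0, 1 and 2 were lower in those comparisons. Nap1l4 fell against het by 0.55 (adjusted p = 0.0240) and Ipo5 against M_KO by 0.75 (adjusted p = 0.0430), with Aamp at -0.39 (adjusted p = 0.0370). No gene of these 3 lists passed in the comparisons among WT_flfl, het and M_KO or among morulae.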

How the data were processed

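RNA was measured in single whole blastocysts and morulae, with 1 library analysed for each embryo. The deposited values are on a log2 scale, made by the authors as log2 of the CPM of a scaled library with 0.5 reads added. The submitters' processing notes name cutadapt 1.14, Bowtie2 2.2.9, RSEM 1.3.1 and the builds mm10 and GRCm38, and the counting rules are not given in the sources used here. CPM was recovered as 2 to the power of the value minus the column's lowest possible value, and whole reads came out for 100% of values within 0.01 reads. Rows that name no gene (3, at most 0.0113% of reads in an embryo) were left out. Genes at 10 CPM or more in 3 or more embryos were tested with limma 3.58.1 in R 4.3.3, with a trended variance, on log2(CPM + 1). The pseudocount of 1 CPM understates the change of low genes. Each stage was fitted once with all its groups, two-sided, with Benjamini-Hochberg adjustment over all genes tested and a threshold of 0.05, and the program was tested on simulated data. The test across stages used a further fit with the groups of both stages, over genes kept in both. Python 3.11.15 and pandas 2.3.3 were used for sums. Annotation was GENCODE M21, and start windows came from RefSeq. No pair of replicates agreed within sampling noise.

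The members and gene lists were chosen with earlier results of these data known. The text names the genes Rps7, Rps27a and Rpl3, up to 10 members with the largest difference in each direction among those past the threshold in a comparison, the measured paralog, ubiquitin fusion and stalk members, and the 3 highest and 3 lowest members per length. It also names the 5 members with the widest range of group means in each table, members past the threshold across stages, members kept by only 1 table, and up to 4 genes of each companion list. Rps20, Rpl36, Rpsa and Rpl21 were chosen after their values were seen. Some genes that the rule names are not reported here. Alternatives were other pseudocounts, filters and scalings, fits on 2 groups, a replicate block and leaving out embryos. Voom weights and leaving out pairs of embryos were added after seeing the data.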

Additional observations from a re-analysis of the deposited data

Results flagged for a closer look

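Only groups of 4 or more embryos were checked for an embryo far from its group. The WT_flfl and MZ_KO blastocysts and the het morulae, with 3 embryos each, were therefore not checked. Among the 52 values checked, 1 was found, and chance gives about 1 in 20. Rpl7 was at 1561 CPM in the morula del 6, against a median of 1251 CPM in its 4-embryo group, and del 6 is also the shallowest library, with 1635553 reads. The knockout difference from het differed between stages, by limma's test of the difference itself, for Rpl10l (2.41) and Rpl7 (1.05), on the log2(CPM + 1) scale.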

How the results depend on the processing

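Counts of members past the threshold depended on the processing more than their direction did. A fit on only the 2 groups compared gave 11 members higher in MZ_KO against WT_flfl, 38 against het and 12 against M_KO. Of all 9585 genes, 370, 519 and 282 were higher in those fits. Replicate numbers only name embryos: deviations of same-numbered embryos correlated between -0.19 and 0.14, except 0.73 for the morulae het 1 and MZKO 1. With a replicate block, 0 members passed against WT_flfl, 0 against het and 0 against M_KO, and the medians were 0.30, 0.54 and 0.32. Few genes of the whole table were higher with the block, 1, 30 and 0 of 9585 in the same order, and 47, 80 and 13 were lower. Unadjusted, 4, 32 and 5 members had p under 0.05 in that limma fit. Leaving out 1 embryo gave 6 to 22 members against WT_flfl, 23 to 61 against het, 6 to 23 against M_KO and 0 to 54 for the difference between stages. Of all genes, 252 to 503 were then higher against WT_flfl, 354 to 715 against het and 172 to 399 against M_KO. The range over all genes for the difference between stages is not given here. Without WT_flfl 1 and het 6, 6 passed against WT_flfl and 30 against het, where 297 and 389 of all genes were higher. Without the morulae het 1 and MZKO 1, 1 passed for MZKO against het and 58 for the difference between stages. For MZKO against het in that setting, the number over all genes is not given here. Without paralogs the summed share in WT_flfl was 3.15%. Rpl3 against WT_flfl ranged from -0.13 without WT_flfl 1 to 0.017 without WT_flfl 9, a change of sign. Ctcf in MZKO against het morulae passed with a pseudocount of 5 CPM (-2.27). Planned edgeR and DESeq2 fits were not run. Voom weights on the recovered whole reads gave 22, 52 and 18 members higher against WT_flfl, het and M_KO. Of all genes, 482, 721 and 347 were higher with voom weights. Precision differed between stages: among members at 100 CPM or more, the median SE was 0.29 for MZKO against het in morulae and 0.14 for MZ_KO against het in blastocysts.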
